A study of Rattus norvegicus with 4 samples.

Results

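Collagen genes encode the triple-helical proteins that give the extracellular matrix its fibrils, networks and anchoring structures. The genes described here were taken from the mRNA table of rat primary Sertoli cells by their names, as every gene name made of Col, a type number, the letter a and a chain number, together with NEWGENE_621351, whose annotation in the table is the alpha-2 chain of type I collagen. The rule took 25 gene names. One of them, Col4a3bp, encodes a ceramide transfer protein and not a collagen, and it was kept out (5.53 and 4.12 FPKM in the 4-NP-treated cells, against 4.89 and 4.45 FPKM in the control cells). The remaining 24 collagen genes had 26 transcripts, of 13114 gene names and 15745 transcripts in the table. They were sorted into 9 fibrillar collagens, 5 basement membrane collagens (types IV and XV) and 4 fibril-associated collagens with interrupted triple helices (FACIT). The other 6 were of types VI, VIII, XIII, XVII and XXVI.

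The cells were primary Sertoli cells from testes of immature Sprague-Dawley rats, obtained by enzyme digestion and passaged in serum-containing medium. The groups were cells exposed to 4-nonylphenol (4-NP), an alkylphenol with estrogenic activity, and control cells without it, both with profiles at 24 h. Each group had 2 libraries of total RNA depleted of ribosomal RNA, and expression was given as FPKM, mapped fragments scaled to transcript length and to library size. The labels do not say whether the libraries came from separate cultures, so the p-values below measure only the spread between these libraries. Collagen mRNA in such a preparation is bulk RNA, in which fewer cells of a type and less RNA per cell cannot be told apart.

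Each collagen chain carries long runs of glycine-X-Y triplets and folds with other chains into a trimer in the endoplasmic reticulum, after hydroxylation of its prolines and lysines. Fibrillar trimers are trimmed outside the cell and crosslinked into fibrils, while type IV chains join into the network of basement membranes. In the seminiferous tubule, Sertoli cells rest on a basement membrane that they build together with the peritubular myoid cells around it, and fibrillar collagen lies mostly in the tubule wall and the interstitium.

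Collagen mRNA was lower in 4-NP-treated cells. FPKM summed over the 24 genes was 427 and 426 in the 4-NP libraries, against 3805 and 3893 in the control libraries. The group averages were 426.6 ± 0.279 FPKM in 4-NP cells and 3849 ± 62.7 FPKM in control cells (SD, n = 2 each), a 9.02-fold lower sum. Collagens made up 0.150% and 0.148% of all mRNA FPKM in the 4-NP libraries, against 1.44% and 1.41% in the control libraries. The gap between the groups was far wider than the gap within either of them. An exact permutation test of 2 against 2 libraries cannot give a two-sided p below 0.333, so sums and ratios are described without a test unless one is named.

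**Figure D1:**
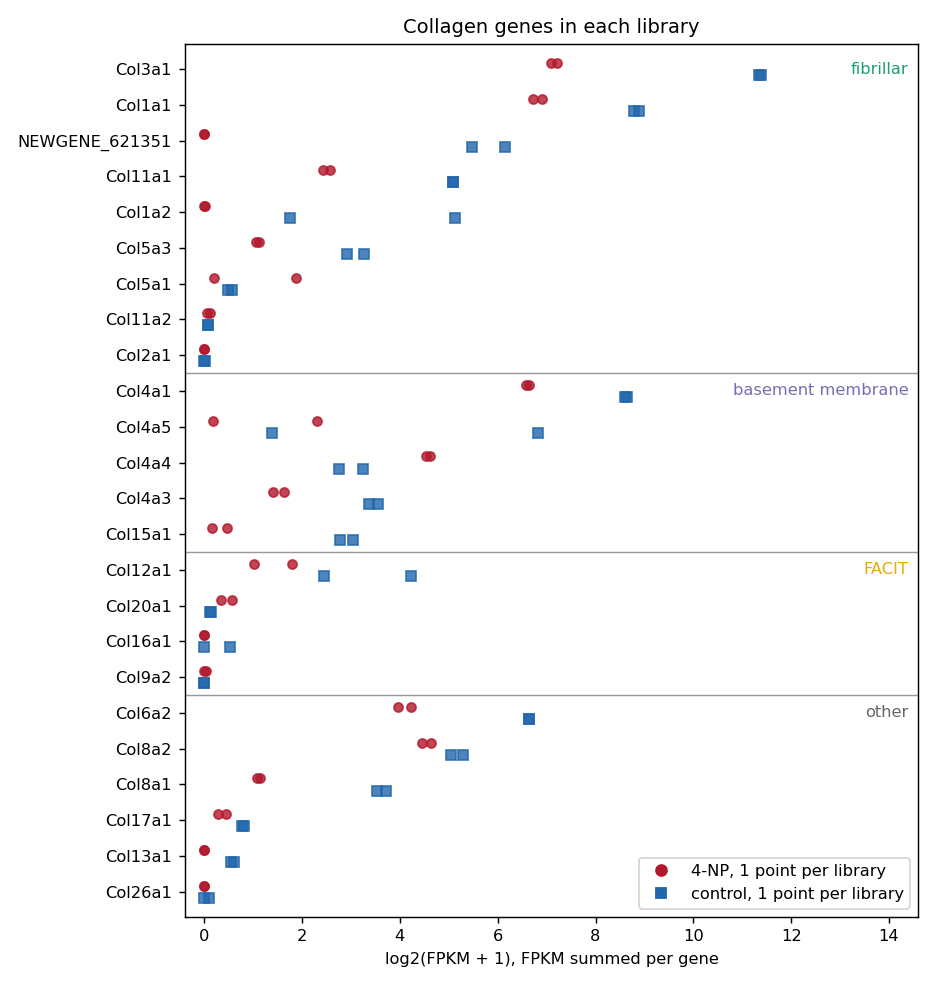
Levels of the 24 collagen genes in each library, as log2(FPKM + 1) on the x axis, with genes grouped by class down the page. Red circles are the 2 4-NP libraries and blue squares the 2 control libraries, and the red points lie left of the blue ones for most genes above 1 FPKM, with Col4a4 the other way round.

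Of the 24 genes, 15 averaged 1 FPKM or more across all 4 libraries and were tested, and 11 of these fell in 4-NP cells (limma over all 8012 tested genes, Benjamini-Hochberg adjusted p under 0.05). Over all tested genes, 23.1% fell and 24.7% rose. A single collagen, Col4a4, rose. The other 3 tested genes, Col12a1, Col1a2 and Col4a5, did not pass. The median log2 change was -2.51 over the 15 tested collagens and 0.05 over all tested genes. In 15 of the 24 genes both 4-NP libraries were below both controls, and in 2, Col4a4 and Col20a1, both were above. Over all gene names, both 4-NP libraries were below both controls in 35.7% and above both in 30.6%. The filter kept some genes only through the group in which they were high, so these shares describe the genes above the filter and not the whole family.

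**Figure D2:**
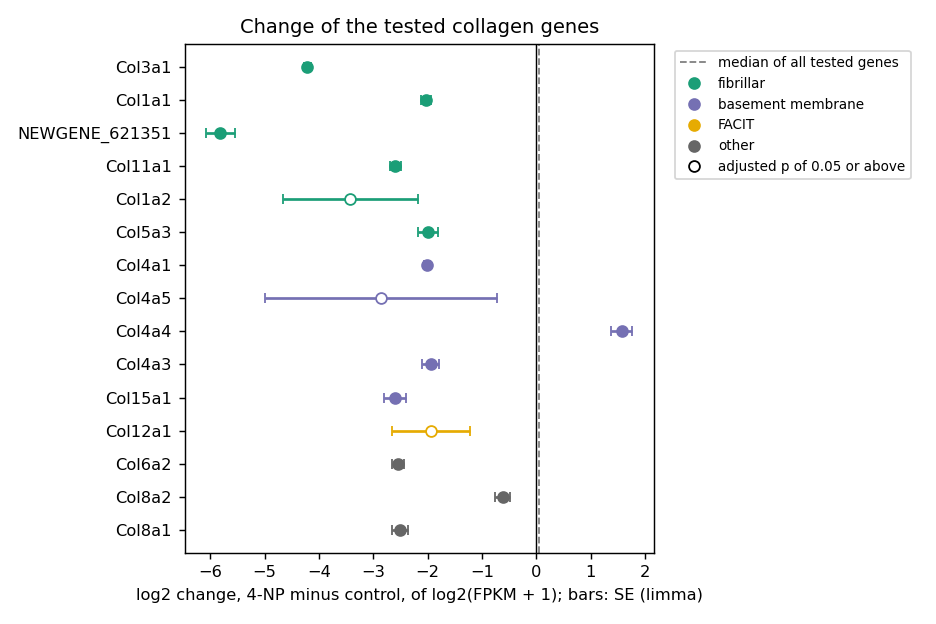
Change of the 15 tested collagen genes, 4-NP minus control, in log2(FPKM + 1) on the x axis, with bars for the standard error from limma. Filled points had an adjusted p under 0.05 and open points did not, and Col4a4 at 1.57 is the single filled point above 0, against a median of all tested genes of 0.05 (dashed line).

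Fibrillar collagens form the load-bearing fibrils of connective tissue. Of the 6 tested, 5 fell, beside 23.1% of all tested genes, and their median log2 change was -3.01. Summed FPKM of the 9 fibrillar genes was 259 and 262 in the 4-NP libraries, against 3210 and 3221 in the control libraries, 12.3-fold lower.

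Col3a1, whose homotrimer makes the thin fibrils of extensible tissue, was the most abundant collagen and lies at chr9:52023295-52059217 on the plus strand with 51 exons in the deposited coordinates. It had 148 and 135 FPKM in the 4-NP libraries, against 2679 and 2605 FPKM in the control libraries. It averaged 142 ± 8.76 FPKM in 4-NP cells and 2642 ± 52.2 FPKM in control cells (SD, n = 2 each). The fold was 18.6-fold lower and the log2 change -4.21 ± 0.07 (SE, adjusted p = 0.000381 by limma). Ordered by mean FPKM, Col3a1 was number 323 of all gene names in 4-NP cells and number 6 in control cells. Its log2 change was number 45 from the lowest of the 8012 tested genes.

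Col1a1 encodes the alpha-1 chain of type I collagen, the main protein of skin, bone and tendon fibrils, and lies at chr10:82745801-82762789 on the plus strand with 51 exons. It had 104 and 119 FPKM in the 4-NP libraries, against 443 and 472 FPKM in the control libraries. It averaged 111.5 ± 9.96 FPKM in 4-NP cells and 457.6 ± 20.4 FPKM in control cells (SD, n = 2 each), 4.11-fold lower, and its log2 change was -2.03 ± 0.09 (SE, adjusted p = 0.00114 by limma). The drop was therefore uneven within the fibrillar class. The ratio of Col3a1 to Col1a1 FPKM was 1.42 and 1.14 in the 4-NP libraries, against 6.04 and 5.52 in the control libraries, a ratio within a library that no scaling between libraries can move.

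The alpha-2 chain of type I collagen joins 1 trimer with a pair of alpha-1 chains, and it appeared in the table as separate genes on chromosome 4. NEWGENE_621351 spans chr4:29535852-29564768 with 47 exons, and Col1a2 spans chr4:31534225-31569151 with 51 exons. They are 1969456 bases apart, with 6 other gene names listed between them. Since both are described as the same chain, reads could be split between them, and the value of either alone is uncertain. RefSeq (GRCr8) lists 1 Col1a2 gene, on chromosome 4. The counts of listed, tested and fibrillar genes given here may therefore hold the same gene under both names.

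NEWGENE_621351 was listed at 0 in both 4-NP libraries, against 43.7 and 70.1 FPKM in the control libraries (log2 change -5.82 ± 0.27, SE, adjusted p = 0.00125 by limma). Col1a2 had 0.00187 and 0.0138 FPKM in the 4-NP libraries, against 2.35 and 33.8 FPKM in the control libraries. The control libraries differed from each other more for Col1a2 than for NEWGENE_621351, and Col1a2 did not pass (log2 change -3.42 ± 1.24, SE, adjusted p = 0.0962 by limma). Its log2 change was -5.11 without control replicate 1 and -1.73 without control replicate 2. Both of these fits passed (limma, adjusted p = 0.0179 and 0.0181), but each has a lone control library that is assumed to vary like the 4-NP libraries, which were near 0, so they say nothing of the spread between controls. Summed into 1 gene, the entries had 0.00187 and 0.0138 FPKM in the 4-NP libraries, against 46.0 and 104 FPKM in the control libraries (log2 change -6.12, limma, adjusted p = 0.0024). With the entries summed, 11 collagens fell and 1 rose, the same counts as with them apart. Adding the entries in this way was chosen after their values were seen. Col1a1, the partner chain in the same trimer, remained at 104 and 119 FPKM in the 4-NP libraries. In the control libraries Col1a1 exceeded the summed alpha-2(I) entries 9.63-fold and 4.54-fold. No ratio is given for 4-NP cells, where the summed entries were near 0.

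The promoter of Col1a2 is shown because its mRNA was the one nearest to 0 in 4-NP cells among the abundant collagens. The sequence is from RefSeq, build GRCr8, chr4:33518307-33518556 on the plus strand, and holds the 250 bases before the annotated start. Capitals mark TATAAA and, nearer the 5′ end, ATTGG, the reverse complement of CCAAT.
Col1a2 promoter: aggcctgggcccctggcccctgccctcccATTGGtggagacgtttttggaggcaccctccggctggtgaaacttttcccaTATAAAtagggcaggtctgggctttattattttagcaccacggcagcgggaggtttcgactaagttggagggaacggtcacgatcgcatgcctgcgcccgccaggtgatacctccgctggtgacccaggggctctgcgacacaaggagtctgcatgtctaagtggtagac
The RefSeq windows used, 250 bases before and 50 after each start, covered 18 collagen symbols. CCAAT, read on both strands, was in 6 of the 18 windows and in 37.5% of all 33469 windows. TATAAA was in 3 of the 18 (Col1a2, Col13a1 and Col17a1) and in 14.2% of all windows, and GGGCGG in 11 of the 18 and in 33.1% of all windows. Of the 8 windows that belonged to genes that fell, 4 held CCAAT, 1 TATAAA and 6 GGGCGG. The Col1a2 window is among the 8 only through NEWGENE_621351, since Col1a2 itself did not pass. It is the 1 with TATAAA and is among the 4 with CCAAT. A match to such short letters is a description of the window and not a binding site.

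Of the minor fibrillar chains, Col11a1 and Col5a3 were tested, and both fell. Col11a1, a type XI chain that sits in the core of heterotypic fibrils and is best known from cartilage, had 4.97 and 4.35 FPKM in the 4-NP libraries, against 33.0 and 33.2 FPKM in the control libraries. It averaged 4.66 ± 0.439 FPKM in 4-NP cells and 33.1 ± 0.139 FPKM in control cells (SD, n = 2 each), 7.10-fold lower, and its log2 change was -2.59 ± 0.10 (SE, adjusted p = 0.00103 by limma). Col5a3, a type V chain that helps to set fibril diameter, had 1.18 and 1.10 FPKM in the 4-NP libraries, against 8.63 and 6.55 FPKM in the control libraries. Its log2 change was -1.99 ± 0.18 (SE, adjusted p = 0.00396 by limma). In both genes the groups were well apart. The other type V chain listed, Col5a1, was under the filter and disagreed between the 4-NP libraries, with 0.147 and 2.69 FPKM there, against 0.487 and 0.401 FPKM in the control libraries. The cartilage chains Col11a2 and Col2a1 were also untested, at or under 0.0818 FPKM in every library, and in both the groups overlapped.

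Basement membrane collagens were the class that held Col4a4, the tested collagen that rose. Of the 5, all tested, 3 fell, 1 rose and 1 did not pass. Over all tested genes 23.1% fell and 24.7% rose, so 1 riser here is near that share. The median log2 change of the class was -2.01. Summed FPKM was 125 and 123 in the 4-NP libraries, against 426 and 525 in the control libraries, 3.84-fold lower.

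Col4a1, the alpha-1 chain of the type IV network found in nearly every basement membrane, lies at chr16:83522162-83632153 with 52 exons. It had 98.7 and 95.1 FPKM in the 4-NP libraries, against 401 and 387 FPKM in the control libraries. It averaged 96.9 ± 2.53 FPKM in 4-NP cells and 394.5 ± 9.91 FPKM in control cells (SD, n = 2 each), 4.07-fold lower, and its log2 change was -2.01 ± 0.05 (SE, adjusted p = 0.000781 by limma). Col4a1 and Col1a1 thus fell by nearly the same factor. The partner chain Col4a2 was not among the gene names read here, so the sums do not hold it.

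Col15a1, a multiplexin that bridges basement membrane and fibrils, had 0.386 and 0.118 FPKM in the 4-NP libraries, against 7.28 and 5.86 FPKM in the control libraries. It averaged 0.252 ± 0.190 FPKM in 4-NP cells and 6.57 ± 1.00 FPKM in control cells (SD, n = 2 each), and its log2 change was -2.60 ± 0.21 (SE, adjusted p = 0.00299 by limma). The fold of mean FPKM, 26.1-fold lower, was larger than the log2 change shows, because adding 1 FPKM before the logarithm understates the change of low genes.

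Col4a3 and Col4a4 encode chains that assemble with alpha-5(IV) into the network of the adult kidney filter, lung and testis, and they lie head to head on chromosome 9, with 373 bases between their outermost transcripts. The neighbours moved in opposite directions. Col4a3, at chr9:88357556-88485830 on the plus strand, had 2.10 and 1.66 FPKM in the 4-NP libraries, against 9.41 and 10.8 FPKM in the control libraries. It averaged 1.88 ± 0.305 FPKM in 4-NP cells and 10.1 ± 0.964 FPKM in control cells (SD, n = 2 each), 5.36-fold lower, and its log2 change was -1.95 ± 0.16 (SE, adjusted p = 0.0031 by limma). Col4a4, on the minus strand, had 23.7 and 22.1 FPKM in the 4-NP libraries, against 5.78 and 8.51 FPKM in the control libraries. It averaged 22.9 ± 1.12 FPKM in 4-NP cells and 7.15 ± 1.93 FPKM in control cells (SD, n = 2 each), 3.20-fold higher, and its log2 change was 1.57 ± 0.20 (SE, adjusted p = 0.00779 by limma). The ratio of Col4a4 to Col4a3 FPKM was 11.3 and 13.3 in the 4-NP libraries, against 0.614 and 0.791 in the control libraries.

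The Col4a4 sum came from 3 listed transcripts that behaved differently. The transcript with 48 exons (ENSRNOT00000077503, chr9:88237089-88356716) had 5.76 and 5.96 FPKM in the 4-NP libraries, against 3.21 and 2.42 FPKM in the control libraries. A transcript of 8 exons (ENSRNOT00000076472, chr9:88232455-88256115, 5950 bases long) had 8.65 and 8.54 FPKM in the 4-NP libraries and was listed at 0 in both control libraries. A transcript of 7 exons and 1130 bases (ENSRNOT00000041176, chr9:88314784-88357182), at the end of the gene next to Col4a3, had 9.25 and 7.58 FPKM in the 4-NP libraries, against 2.57 and 6.09 FPKM in the control libraries. Both shorter transcripts overlap the span of the 48-exon one, so the division of reads among them depends on the authors' estimate. Fitted as separate transcripts, the 48-exon one rose by 0.85 on the log2 scale (limma, adjusted p = 0.0265) and the 8-exon one by 3.26 (adjusted p = 0.00188), while the 7-exon one had a change of 0.90 (adjusted p = 0.155). The Col4a4 call was lost without 4-NP replicate 1 (log2 change 1.52, limma, adjusted p = 0.058) and without 4-NP replicate 2 (log2 change 1.62, adjusted p = 0.0542), fits with a single 4-NP library in which the change stayed about as large. It was also lost with the most abundant transcript alone (log2 change 0.90, adjusted p = 0.146). Without the 8-exon transcript, an alternative added after the values were seen, Col4a4 still passed with a log2 change of 0.93 (limma, adjusted p = 0.0303).

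**Figure D3:**
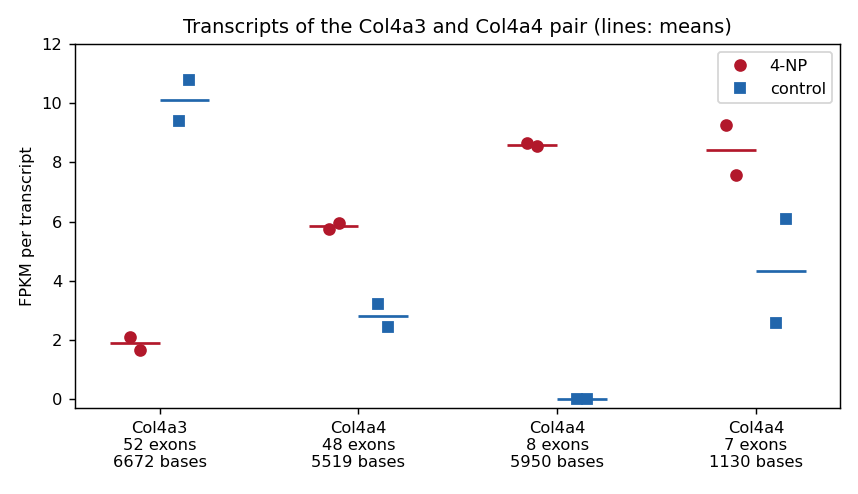
FPKM of the Col4a3 transcript and of the 3 Col4a4 transcripts on the y axis, with the 2 4-NP libraries (red circles) left of the 2 control libraries (blue squares) and lines at the group means. Col4a3 is lower in the 4-NP libraries, 2.10 and 1.66 FPKM against 9.41 and 10.8 FPKM in controls, while each Col4a4 transcript is higher in them, and the 8-exon one is listed at 0 in both controls.

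The stretch between these genes is shown because a single short interval holds the promoters of both. In RefSeq (GRCr8) the annotated starts are 412 bases apart, and the 250 bases before each start share 88 bases, printed in capitals. Each window is printed along its own gene's strand, so the capitals of one are the reverse complement of the other's. The Col4a3 window is chr9:91323740-91323989 on the plus strand and the Col4a4 window is chr9:91323578-91323827 on the minus strand. These positions are of another annotation than the table's and cannot be set beside its coordinates.
Col4a3 promoter: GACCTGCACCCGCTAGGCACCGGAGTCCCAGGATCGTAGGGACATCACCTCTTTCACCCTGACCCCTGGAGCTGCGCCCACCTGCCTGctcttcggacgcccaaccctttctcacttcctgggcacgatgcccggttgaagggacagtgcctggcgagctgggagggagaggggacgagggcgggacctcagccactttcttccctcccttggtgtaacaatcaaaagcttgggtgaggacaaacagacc
Col4a4 promoter: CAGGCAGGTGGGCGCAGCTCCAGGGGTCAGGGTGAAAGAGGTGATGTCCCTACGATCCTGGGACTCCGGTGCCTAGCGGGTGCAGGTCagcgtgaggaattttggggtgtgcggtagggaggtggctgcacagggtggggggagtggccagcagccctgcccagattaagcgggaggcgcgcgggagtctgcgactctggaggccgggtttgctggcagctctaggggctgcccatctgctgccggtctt

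Col4a5, the chain that completes the trimer with Col4a3 and Col4a4, gave no usable comparison. It had 0.133 and 3.96 FPKM in the 4-NP libraries, against 1.61 and 113 FPKM in the control libraries (log2 change -2.86 ± 2.13, SE, adjusted p = 0.337 by limma). The groups overlapped, and control replicate 2 stood apart from the other 3 libraries. Col4a5 made up 21.5% of basement membrane FPKM in control replicate 2 and 0.378% in control replicate 1. The control libraries differed by more FPKM in Col4a5 than in the whole class sum.

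FACIT collagens decorate the surface of fibrils. The 1 tested member, Col12a1, had 2.50 and 1.01 FPKM in the 4-NP libraries, against 17.8 and 4.47 FPKM in the control libraries (log2 change -1.93 ± 0.72, SE, adjusted p = 0.103 by limma). Both 4-NP values were below both controls, but control replicate 2 was nearer to the 4-NP libraries than to control replicate 1. Its log2 change was -2.83 without control replicate 2 (limma, adjusted p = 0.0433) and -1.04 without control replicate 1 (adjusted p = 0.197). Col20a1 was higher in both 4-NP libraries at a low level, 0.494 and 0.273 FPKM, against 0.0962 and 0.0880 FPKM in the control libraries, and was under the filter. Col16a1 was listed at 0 in both 4-NP libraries, against 0 and 0.433 FPKM in the control libraries, and Col9a2 at 0 and 0.0292 FPKM in the 4-NP libraries, against 0 in both control libraries.

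The other collagens comprise network-forming, beaded and transmembrane types. All 3 tested members fell, beside 23.1% of all tested genes. Summed FPKM of the 6 genes was 40.1 and 39.9 in the 4-NP libraries, against 151 and 142 in the control libraries, 3.66-fold lower. Col6a2, a chain of the beaded type VI microfibrils around cells, had 14.5 and 17.6 FPKM in the 4-NP libraries, against 99.2 and 98.1 FPKM in the control libraries. It averaged 16.1 ± 2.20 FPKM in 4-NP cells and 98.7 ± 0.789 FPKM in control cells (SD, n = 2 each), 6.14-fold lower, and its log2 change was -2.55 ± 0.11 (SE, adjusted p = 0.0012 by limma). Its partner chains Col6a1 and Col6a3 were not among the gene names read here, so the sums do not hold them.

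The chains of type VIII collagen, a short-chain network collagen of vessel walls and other linings, fell by very different amounts. Col8a1 had 1.20 and 1.12 FPKM in the 4-NP libraries, against 12.1 and 10.5 FPKM in the control libraries (9.75-fold lower, log2 change -2.51 ± 0.14, SE, adjusted p = 0.00175 by limma). Col8a2 had 24.0 and 21.0 FPKM in the 4-NP libraries, against 38.4 and 32.0 FPKM in the control libraries (1.56-fold lower, log2 change -0.62 ± 0.13, SE, adjusted p = 0.0274 by limma). The ratio of Col8a2 to Col8a1 FPKM was 19.9 and 18.7 in the 4-NP libraries, against 3.16 and 3.04 in the control libraries. The Col8a2 call was lost without 4-NP replicate 1 (log2 change -0.71, limma, adjusted p = 0.0746), 4-NP replicate 2 (log2 change -0.53, adjusted p = 0.118) or control replicate 1 (log2 change -0.49, adjusted p = 0.0915).

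The remaining members of this class were under the filter. The transmembrane collagen Col13a1 was listed at 0 in both 4-NP libraries, against 0.469 and 0.534 FPKM in the control libraries. Col17a1, the transmembrane collagen of hemidesmosomes, had 0.358 and 0.212 FPKM in the 4-NP libraries, against 0.766 and 0.717 FPKM in the control libraries. Col26a1 was listed at 0 in 3 libraries and had 0.0719 FPKM in control replicate 1.

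The make-up of the listed collagen mRNA differed between the groups as well as its amount. Col4a2, Col5a2, Col6a1 and Col6a3 were not among the gene names read here, so the shares do not hold them. Fibrillar collagens made up 60.6% and 61.5% of collagen FPKM in the 4-NP libraries, against 84.4% and 82.7% in the control libraries. Basement membrane collagens made up 29.3% and 28.8% in the 4-NP libraries, against 11.2% and 13.5% in the control libraries. The other types made up 9.40% and 9.36% in the 4-NP libraries, against 3.97% and 3.64% in the control libraries. The shares of these classes did not overlap between groups, and those of the FACIT class, all under 1%, did.

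Much of this shift was Col3a1. It made up 34.7% and 31.8% of collagen FPKM in the 4-NP libraries, against 70.4% and 66.9% in the control libraries. The shares of Col1a1 (24.5% and 27.8% in the 4-NP libraries, against 11.6% and 12.1% in the control libraries) and of Col4a1 (23.1% and 22.3% in the 4-NP libraries, against 10.6% and 9.95% in the control libraries) were both higher in 4-NP cells, although their FPKM were lower. The ratio of fibrillar to basement membrane FPKM was 2.07 and 2.13 in the 4-NP libraries, against 7.54 and 6.13 in the control libraries. On the log2 scale the ratio differed by -1.69 (exact permutation test, two-sided p = 0.333, the smallest that 2 against 2 libraries can give). Without Col3a1 the difference was -0.34.

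**Figure D4:**
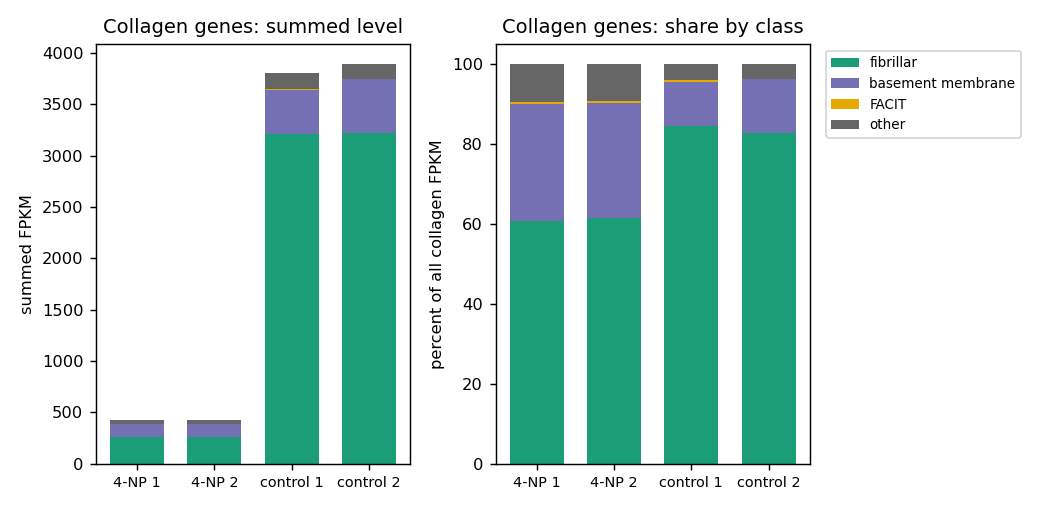
Collagen FPKM by class in each library, 4-NP libraries left of control libraries, as summed FPKM (left) and as a percent of all collagen FPKM (right), both axes starting at 0. The sums are 427 and 426 FPKM in the 4-NP libraries, against 3805 and 3893 FPKM in the control libraries, and the fibrillar share is 60.6% and 61.5% in the 4-NP libraries, against 84.4% and 82.7% in the control libraries.

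Genes that modify, secrete, cleave and crosslink collagen moved in both directions. Of 25 tested, 7 rose and 12 fell, beside 24.7% and 23.1% of all tested genes, and the median change was -0.46 on the log2 scale. The 7 that rose are not far from that share. The filter kept P4ha2 only through the 4-NP libraries and Adamts14 only through the control libraries. The counts were in part fixed by this. P4ha2, a catalytic subunit of prolyl 4-hydroxylase, had 34.9 and 18.8 FPKM in the 4-NP libraries, against 0.122 and 0.197 FPKM in the control libraries (log2 change 4.52, limma, adjusted p = 0.00266). P4hb, the disulfide isomerase that is its other subunit, rose by 1.39 (adjusted p = 0.000934), with 1836 and 1832 FPKM in the 4-NP libraries, against 686 and 718 FPKM in the control libraries. Plod3, a lysyl hydroxylase, also rose. P3h1, Ppib, Serpinh1 and Colgalt1 rose by at most 0.35, and none of these 4 passed with libraries scaled by median-of-ratios size factors, which lower the median change of all genes by 0.11.

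Lox, which oxidises lysines to start crosslinks between collagen molecules, had 1.69 and 0.453 FPKM in the 4-NP libraries, against 32.3 and 42.0 FPKM in the control libraries (log2 change -4.26, limma, adjusted p = 0.00344). Its relatives Loxl1, Loxl2 and Loxl3 fell too, by 2.73, 1.69 and 1.57 on the log2 scale. Pcolce, which enhances removal of the procollagen C-propeptide, had 76.3 and 69.4 FPKM in the 4-NP libraries, against 407 and 401 FPKM in the control libraries (log2 change -2.46, limma, adjusted p = 0.000781). Adamts2 and Adamts14, which remove the N-propeptide, and Sparc, a collagen-binding matrix protein, fell as well. Genes of proteins that act inside the cell also fell. They were the lysyl hydroxylases Plod1 and Plod2 and the prolyl 3-hydroxylase family members P3h3 and P3h4 (by 0.46 and 0.99 on the log2 scale). P4ha1, the other prolyl 4-hydroxylase subunit tested, and the chaperone Fkbp10 did not pass. Plod2, which hydroxylates the telopeptides, had 16.7 and 16.6 FPKM in the 4-NP libraries, against 190 and 224 FPKM in the control libraries.

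Of 5 tested receptors for collagen, 1 rose and 2 fell, beside 24.7% and 23.1% of all tested genes, and the median change was -1.02 on the log2 scale. Counts this small are not far from those shares. Itga1, the integrin chain that prefers type IV collagen, had 1.51 and 1.69 FPKM in the 4-NP libraries, against 26.3 and 27.6 FPKM in the control libraries (log2 change -3.43, limma, adjusted p = 0.000843). Itga2, the integrin chain that prefers fibrillar collagen, had 20.4 and 22.3 FPKM in the 4-NP libraries, against 7.83 and 7.84 FPKM in the control libraries (log2 change 1.34, limma, adjusted p = 0.00242). Itgb1, their common partner, fell by 1.04.

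Among 11 tested genes of collagen breakdown, 4 rose and 4 fell, not far above the 24.7% and 23.1% of all tested genes. The median change was -0.21 on the log2 scale. The filter kept Mmp13 only through the 4-NP libraries, so its place among those that rose was in part fixed by the filter. Mmp13, the collagenase of rodents that cuts fibrillar collagen, had 6.87 and 8.27 FPKM in the 4-NP libraries, against 0 and 0.0353 FPKM in the control libraries (log2 change 3.07, limma, adjusted p = 0.00162). Mmp2, a gelatinase, had 155 and 149 FPKM in the 4-NP libraries, against 87.5 and 85.0 FPKM in the control libraries, and the lysosomal proteases Ctsb and Ctsl also rose. The protease inhibitor Timp2 had 19.0 and 20.9 FPKM in the 4-NP libraries, against 115 FPKM in both control libraries, and its relative Timp1 had 27.7 and 29.8 FPKM in the 4-NP libraries, against 95.9 and 105 FPKM in the control libraries. Mmp14, a membrane-bound collagenase, and Reck, an inhibitor of it, fell as well.

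Of 12 tested partners of fibrils and basement membranes, 7 fell and 1 rose, beside 23.1% and 24.7% of all tested genes. The median change was -1.25 on the log2 scale. The filter kept Lama1 only through the control libraries, so its place among those that fell was in part fixed by the filter. Nid1, which links laminin to type IV collagen, had 57.5 and 60.0 FPKM in the 4-NP libraries, against 271 and 290 FPKM in the control libraries (log2 change -2.24, limma, adjusted p = 0.000782). Nid2, Lama1, Lamb2, Lamc1, Bgn and Lum also fell. Dcn, a proteoglycan that binds along collagen fibrils, was the one that rose, with 445 and 494 FPKM in the 4-NP libraries, against 93.8 and 97.4 FPKM in the control libraries (log2 change 2.28, limma, adjusted p = 0.000843). Fn1, the fibronectin on which fibrils are laid down, had 35.5 and 42.1 FPKM in the 4-NP libraries, against 33.5 and 42.7 FPKM in the control libraries, and the groups overlapped.

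**Figure D5:**
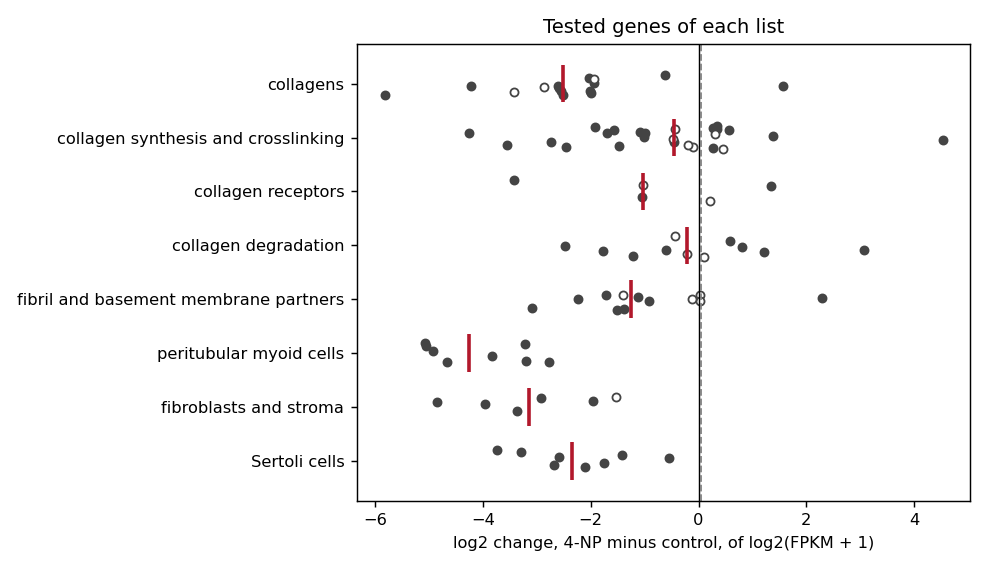
Log2 change, 4-NP minus control, of log2(FPKM + 1) on the x axis for the tested genes of each list, with 1 point per gene (filled where the adjusted p was under 0.05), a red bar at the list's median and a dashed line at the median of all tested genes. The medians are -2.51 for collagens, -0.46 for synthesis and crosslinking, -4.25 for markers of peritubular myoid cells and -2.34 for markers of Sertoli cells. They cover only genes above the filter, which kept some, such as Dhh and Cldn11, only through the control libraries. With no filter the medians were -3.835 for markers of peritubular myoid cells and -1.592 for markers of Sertoli cells.

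Collagens are made by several cell types of the testis, so marker genes were read in the same libraries. Over all tested genes, 23.1% were lower and 24.7% higher in 4-NP cells. The filter kept some markers, such as Dhh, Cldn11 and Thy1, only through the control libraries. Counts of tested markers that fell were in part fixed by this. Sertoli markers were uneven. Clu had 16.0 and 13.3 FPKM in the 4-NP libraries, against 70.5 and 61.8 FPKM in the control libraries, and Aard had 1.06 and 0.954 FPKM in the 4-NP libraries, against 27.0 and 24.5 FPKM in the control libraries. Wt1 had 0.261 and 1.25 FPKM in the 4-NP libraries, against 2.89 and 4.28 FPKM in the control libraries, and Inha, Krt18, Nr5a1 and Cldn11 were between 11.0 and 17.0 FPKM in the control libraries. Among the markers under the filter, Sox9 was at or under 0.307 FPKM, Gata4 at or under 0.464 FPKM and Fshr at or under 0.226 FPKM in every library, and all 8 tested Sertoli markers, of 12 listed, fell, with a summed level over the list of 29.5 and 26.8 FPKM in the 4-NP libraries, against 158 and 147 FPKM in the control libraries. Markers of peritubular myoid cells had the highest sum of the marker lists in the control libraries. All 8 tested, of 9 listed, fell, and the list summed to 660 and 648 FPKM in the 4-NP libraries, against 7893 and 7978 FPKM in the control libraries. Acta2, smooth muscle actin, had 17.2 and 23.5 FPKM in the 4-NP libraries, against 684 and 734 FPKM in the control libraries. Of 6 tested markers of fibroblasts and stroma, from 8 listed, 5 fell, and the sum was 441 and 435 FPKM in the 4-NP libraries, against 1778 and 1999 FPKM in the control libraries. Vim, a widely expressed filament protein, made up most of this sum, with 428 and 426 FPKM in the 4-NP libraries, against 1568 and 1770 FPKM in the control libraries. Within this list Pdgfrb was at or under 0.470 FPKM in every library, and Thy1 had 0.219 and 0.335 FPKM in the 4-NP libraries, against 11.8 and 12.6 FPKM in the control libraries.

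Markers of the remaining cell types were also read. Here the filter kept Cdh5, Esam, Cd14, Lyz2, Dazl, Kit and Tex101 only through the control libraries, so the counts that fell say little. The 2 tested endothelial markers, of 6 listed, and the 2 tested macrophage markers, of 7 listed, fell. The endothelial list summed to 0.658 and 0.501 FPKM in the 4-NP libraries, against 10.8 and 7.78 FPKM in the control libraries. The macrophage list summed to 1.38 and 1.50 FPKM in the 4-NP libraries, against 8.02 and 9.05 FPKM in the control libraries. Within it Cd68, under the filter, went the other way, with 0.552 and 0.812 FPKM in the 4-NP libraries, against 0.0888 and 0.301 FPKM in the control libraries. All 4 tested germ cell markers fell, with sums of 4.10 and 5.17 FPKM in the 4-NP libraries, against 21.9 FPKM in both control libraries. Of the 2 tested Leydig cell markers, Star, the cholesterol transporter of steroid-making cells, rose and Hsd11b1 fell. Star had 813 and 788 FPKM in the 4-NP libraries, against 310 and 305 FPKM in the control libraries, and the Leydig list summed to 826 and 799 FPKM in the 4-NP libraries, against 340 and 336 FPKM in the control libraries. In the same list, Cyp11a1 was at or under 1.15 FPKM and Cyp17a1 at or under 0.0707 FPKM in every library. The sums of every marker list but the Leydig one were thus lower in 4-NP cells, as the collagen sum was, and the part of the cells present in the collagen difference was not tested.

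One of the 265 deposited lncRNAs lay within 10000 bases of a collagen gene. MSTRG.4515.1 is a transcript of 4 exons on the minus strand at chr10:82734396-82743304, 2496 bases before Col1a1. It had 0.0703 and 0 FPKM in the 4-NP libraries, against 1.02 and 2.08 FPKM in the control libraries, lower in 4-NP cells as Col1a1 was. Every lncRNA in that table had been selected by the authors as changed, and none was tested here.

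The tables used here give FPKM and no counts, so the depth behind each value is not known from them. Total FPKM was 285332 and 287515 in the 4-NP libraries, against 264920 and 275688 in the control libraries. The correlation of log2(FPKM + 1) over the 8012 tested genes was 0.953 between the 4-NP libraries, 0.942 between the control libraries and 0.786 to 0.794 between groups, which describes these libraries only, since genes are not independent replicates.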

How the data were processed

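Total RNA of rat primary Sertoli cells, depleted of ribosomal RNA, was sequenced in 2 4-NP and 2 control libraries, grouped by the sample titles. Columns named NP were matched to the treated samples. The authors deposited FPKM per transcript for mRNAs and lncRNAs. HISAT2 and DESeq2 are named in the submitters' processing notes. Their versions, the genome build and the annotation were not given in the sources used here. The authors' own fold, p-value and q-value columns were not used, nor was the circRNA table, which lists no coordinates.

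Of 17290 mRNA rows, 1544 exact repeats and 1 rounded second entry were dropped, and FPKM was summed per gene name. Of these names, 8 occur on more than 1 chromosome. Reads of near-identical gene copies may be divided between them. The two-sided test was limma 3.58.1 (R 4.3.3, mean-variance trend, group as the only term) on log2(FPKM + 1) of genes averaging 1 FPKM or more, with Benjamini-Hochberg adjustment at 0.05 over all of them. A count model had been foreseen only for a table of counts. Fold values are ratios of mean FPKM. The fit was also run on simulated data. Far fewer genes changed there than were called here, so no conclusion is drawn from that run.

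Collagens with a mean of at least 5 FPKM were to be described in full and the others by range, with any collagen that rose, and up to 5 members of each list by smallest p. A few other members were named after their values were seen. Ratios between chains other than that of type I were also chosen then. The planned ratios of Col4a1 to Col4a2, Col5a1 to Col5a2, and Col6a1 and Col6a3 to Col6a2 could not be made, since a chain was not listed. The lists were collagen synthesis and crosslinking, receptors, degradation, fibril and basement membrane partners, and markers of Sertoli, peritubular myoid, stromal, endothelial, macrophage, Leydig and germ cells. The members and lists were chosen with earlier results of these data known. Promoter windows are from RefSeq (GRCr8) and were matched by symbol for 19 of the 24 genes, with both alpha-2(I) entries on 1 window. Col1a1 and Col3a1 had none. Python 3.11.15, pandas 2.3.3, numpy 2.4.6 and matplotlib 3.10.9 were used for the other steps. Alternatives were the scaling, filter, pseudocount, variance model, transcripts, replicate block and leaving out each library.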

Additional observations from a re-analysis of the deposited data

How the results depend on the processing

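Under alternatives the 15 tested collagens had 207 values, and 195 of these kept their direction and side of the threshold. The call was lost in 6 (Col4a4 and Col8a2) and gained in 6 (Col12a1 and Col1a2), and 0 changed direction. Many of these directions were fixed beforehand. The variance model, the replicate block and the filters leave a log2 change as it is, and some alternatives alter only Col1a2 or Col4a4. The counts therefore say little of how stable the directions are. With each library left out in turn, 10 to 13 collagens fell and 0 to 1 rose, the 0 without either 4-NP library, where 1 rose at an unadjusted p under 0.05 (limma). With the most abundant transcript of each gene 0 rose, also at an unadjusted p under 0.05, and with transcripts as listed 2 rose, both of Col4a4. Over all tested genes, leaving out a library gave 2404 to 2824 changed genes, with 1134 to 1518 that rose, and a mean of at least 5 FPKM left 1158 that fell. All genes split into 1811 higher and 2019 lower with equal totals and 1708 higher and 2101 lower with median-of-ratios size factors, and no filter gave 2017 higher and 2384 lower. With equal totals and with median-of-ratios size factors, the ratio of 4-NP to control FPKM was 0.0764 and 0.0739 for fibrillar collagens (0.081 as deposited), 0.258 and 0.249 for the other types (0.273), and 0.105 and 0.101 for all collagens (0.111). For the FACIT class it was 0.115 to 0.432 when a library was left out (0.188). In the synthesis and crosslinking list 5 rose with equal totals and 3 with median-of-ratios size factors, against 7 with FPKM as deposited, and 3 to 4 with a library left out. The deviations of same-numbered libraries had a correlation of -0.00766 over genes, which cannot show whether those libraries shared a culture. With a replicate block 12 collagens fell, 1 rose and 1684 of all genes rose and 1532 fell. The block moved Col12a1 past the threshold (adjusted p = 0.044, limma). The causes of these differences were not tested. The planned match of circRNAs to collagen genes was not run, since that table gives no coordinates. Without counts, how far depth limits the low collagens is not known.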
